A study of Mus musculus with 24 samples.

Results

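Semaphorins are secreted or membrane-bound guidance cues, plexins are their transmembrane receptors, and neuropilins are coreceptors that let plexins respond to the secreted class. The genes described here were taken by symbol from the annotation of the count table, as Sema3 to Sema7 followed by 1 letter, Plxna1 to Plxna4, Plxnb1 to Plxnb3, Plxnc1, Plxnd1, Nrp1 and Nrp2. The rule found 31 of the 56748 genes counted, with 20 semaphorins, 9 plexins and 2 neuropilins. All 31 genes passed the filter on low counts in each of the comparisons below, and none was at or under the floor of 3 counts in any library.

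The study sequenced RNA of the dental mesenchyme from the first mandibular molar germ of ICR mouse embryos, an outbred stock, and 24 libraries were made. Germs of the cap stage (E13) or the bell stage (E15) were cut into a lingual part (Cap-L, Bell-L), on the tongue side, and a buccal part (Cap-B, Bell-B), on the cheek side, and the mesenchyme was freed from the epithelium. Undivided samples of both stages were labelled whole tooth germ (Cap-W, Bell-W), and parts of the cap stage were also kept for 2 days in culture (Cap-L+2D, Cap-B+2D). Each of these 8 groups had 3 libraries, and the labels name no genetic change and no added agent for any of them. Embryos of several pregnant mice were used, and the labels do not tie a replicate number to an animal or litter, so p-values measure the spread between libraries, which may in part be technical. The paper states sequencing in triplicate and also 2 biological replicates, so the number of independent samples behind each group is not known. The divided and undivided groups were compared to learn how the mesenchyme differs between stages, between sides and in culture, and Nrp1, Sema3c and Sema5b are the genes of this family that the study named.

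Semaphorin classes differ in how they reach a receptor. Class 3 proteins are secreted and mostly bind a neuropilin, which pairs with a plexin of the A type, while Sema3e binds Plxnd1 directly. Classes 4, 5 and 6 span the membrane, and Sema7a is held by a lipid anchor and acts through Plxnc1 and integrins. Plexins switch off small GTPases of the Ras and Rap type inside the cell, which loosens adhesion and collapses the advancing edge of axons and migrating cells, and neuropilins also take part in VEGF signalling in blood vessels. In the tooth germ, Sema3a of the mesenchyme is known as a repellent that holds back nerve fibres, and Sema3c is known for guiding neural crest cells, from which dental mesenchyme descends, in the heart.

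The start regions of both neuropilins and of a pair of class 3 ligands are shown because these genes carried several of the differences between the sides. Each sequence runs 5′ to 3′ on the gene's strand (plus in all 4), from 250 bases before to 30 bases from the start of the annotated canonical transcript in GRCm39. The regions are chr8:129085215-129085494 for Nrp1, chr1:62742194-62742473 for Nrp2, chr5:13448546-13448825 for Sema3a and chr5:17778969-17779248 for Sema3c. The counted exons of Sema3a begin at chr5:13175381 and those of Nrp1 at chr8:129085085, before these canonical starts. Counts of both genes can therefore include transcripts that start elsewhere. Capitals mark GGGCGG (a GC box), in either strand's letters, and TAATTA (a core that homeodomain proteins bind), which reads the same on both strands.
Nrp1: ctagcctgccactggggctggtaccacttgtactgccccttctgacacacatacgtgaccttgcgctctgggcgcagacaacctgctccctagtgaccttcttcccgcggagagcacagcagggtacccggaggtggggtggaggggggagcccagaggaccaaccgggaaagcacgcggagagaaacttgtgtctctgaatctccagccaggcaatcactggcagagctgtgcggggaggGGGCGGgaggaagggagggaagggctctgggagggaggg
Nrp2: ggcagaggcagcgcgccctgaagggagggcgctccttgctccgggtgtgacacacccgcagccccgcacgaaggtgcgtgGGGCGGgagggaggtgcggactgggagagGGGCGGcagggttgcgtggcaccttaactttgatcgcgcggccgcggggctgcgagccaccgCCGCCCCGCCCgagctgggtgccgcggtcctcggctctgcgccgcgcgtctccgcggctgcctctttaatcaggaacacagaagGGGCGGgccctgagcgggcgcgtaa
Sema3a: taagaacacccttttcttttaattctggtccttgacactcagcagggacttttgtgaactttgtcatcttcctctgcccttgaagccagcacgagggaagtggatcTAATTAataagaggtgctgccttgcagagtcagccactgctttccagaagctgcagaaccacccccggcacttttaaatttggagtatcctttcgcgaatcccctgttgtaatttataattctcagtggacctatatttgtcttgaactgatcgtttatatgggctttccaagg
Sema3c: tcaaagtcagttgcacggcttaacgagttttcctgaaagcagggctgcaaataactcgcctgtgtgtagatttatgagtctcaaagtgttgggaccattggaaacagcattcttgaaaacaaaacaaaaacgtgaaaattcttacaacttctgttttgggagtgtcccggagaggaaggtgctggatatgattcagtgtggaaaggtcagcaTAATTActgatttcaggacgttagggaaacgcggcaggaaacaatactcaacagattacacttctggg
GGGCGG occurred 1 time in the Nrp1 window and 5 times in that of Nrp2, where 1 neighbouring pair overlapped, and 0 times in those of Sema3a and Sema3c. TAATTA occurred 1 time each in Sema3a and Sema3c, the 2 genes of the 31 with a match, against 5.4% of 21770 windows of the same length over the annotation. GGGCGG was present in 23 of the 31 windows against 40.7% of all windows. The E-box CANNTG was present in 17 of the 31 windows against 68.5%, and TATAAA in 1 (Sema3a, with 2 matches) against 12.7%. Nrp2 held 35 CpG dinucleotides, Nrp1 11, Sema3c 8 and Sema3a 5. These matches describe letters in the windows and were not tested for binding.

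Libraries held 20581720 to 39266497 counted read pairs, and a count of 3 came to 0.0764 to 0.146 CPM, a floor that covers counting error only. Levels below are CPM, the count scaled to a common library total, after TMM normalisation, which equalises the bulk of genes between libraries, or the same per kilobase of exon. The summed level of 10 dental mesenchyme markers (Msx1, Pax9 and Barx1 among them) lay between 2394 and 4498 CPM in all 24 libraries. Their sum also differed between groups, with 3412 to 3418 CPM in Cap-B and 2662 to 2691 in Cap-B+2D. Of the 10, 2 were called higher and 0 lower in Cap-B against Cap-L. The counts were 2 higher and 1 lower in Bell-B against Bell-L, and 1 and 3 in Cap-B+2D against Cap-L+2D. With culture they were 1 and 4 on the lingual side and 1 and 3 on the buccal side. The part of these markers in the results was not tested. Markers of other tissues were also present and moved with the groups. The sum of 8 muscle markers was 23.8 to 24.4 CPM in Cap-L, 265 to 282 in Cap-B, 126 to 134 in Bell-L, 1043 to 1067 in Bell-B, 328 to 350 in Cap-L+2D and 4206 to 4425 in Cap-B+2D, and all 8 were called higher in the buccal part in each side comparison. The sum of 8 epithelial markers was 485 to 534 in Cap-L, 363 to 379 in Cap-B, 394 to 427 in Cap-L+2D and 87.9 to 88.8 in Cap-B+2D. In the bell parts the epithelial sum was 766 to 796 (Bell-L) and 553 to 571 (Bell-B). Libraries of the undivided groups stood apart: the median coefficient of variation over the 31 genes was 17.1% in Cap-W and 13.7% in Bell-W against 2.98% to 6.41% in the other groups. A ribosomal RNA gene took 5.39% of the counts in Cap-W 1, 1.30% in Bell-W 1, 1.43% in Bell-W 2 and at most 0.304% in the other libraries. Bell-W 3 held 2078 CPM of epithelial and 157 CPM of neuronal markers against at most 573 and 26.5 in the other Bell-W libraries. No marker of these lists was at 0 in every library of a group.

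Per kilobase of exon, the family was led by receptors. Plxnb2, a receptor of class 4 semaphorins, had group means of 45.5 (Bell-W) to 61.7 (Cap-B+2D) CPM per kb and the highest level in every group except Bell-L, where Plxnd1, the Sema3e receptor, was level with it (48.5 against 48.4). Plxnb3, which has been described as a Sema5a receptor, had the lowest level per kilobase in every group (0.103 to 0.612). Among ligands on this scale, Sema4c (25.3), Sema6a (23.5) and Sema3f (23.3) were the most abundant in Cap-L, and Sema3f (42.9) and Sema4c (24.7) in Cap-B. Nrp2 exceeded Nrp1 in Cap-L (35.1 against 6.81) and fell below it in Cap-B+2D (16.99 against 23.8). The exon length counts all transcripts of a gene, so genes with long alternative exons are set too low. Reads on exons shared with another gene were not counted, and such exons made up 15.43% of Plxna2, 10.71% of Plxna1, 7.27% of Sema4c and at most 2.68% of the other genes, which limits the comparison between genes and not that between samples.

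**Figure D1:**
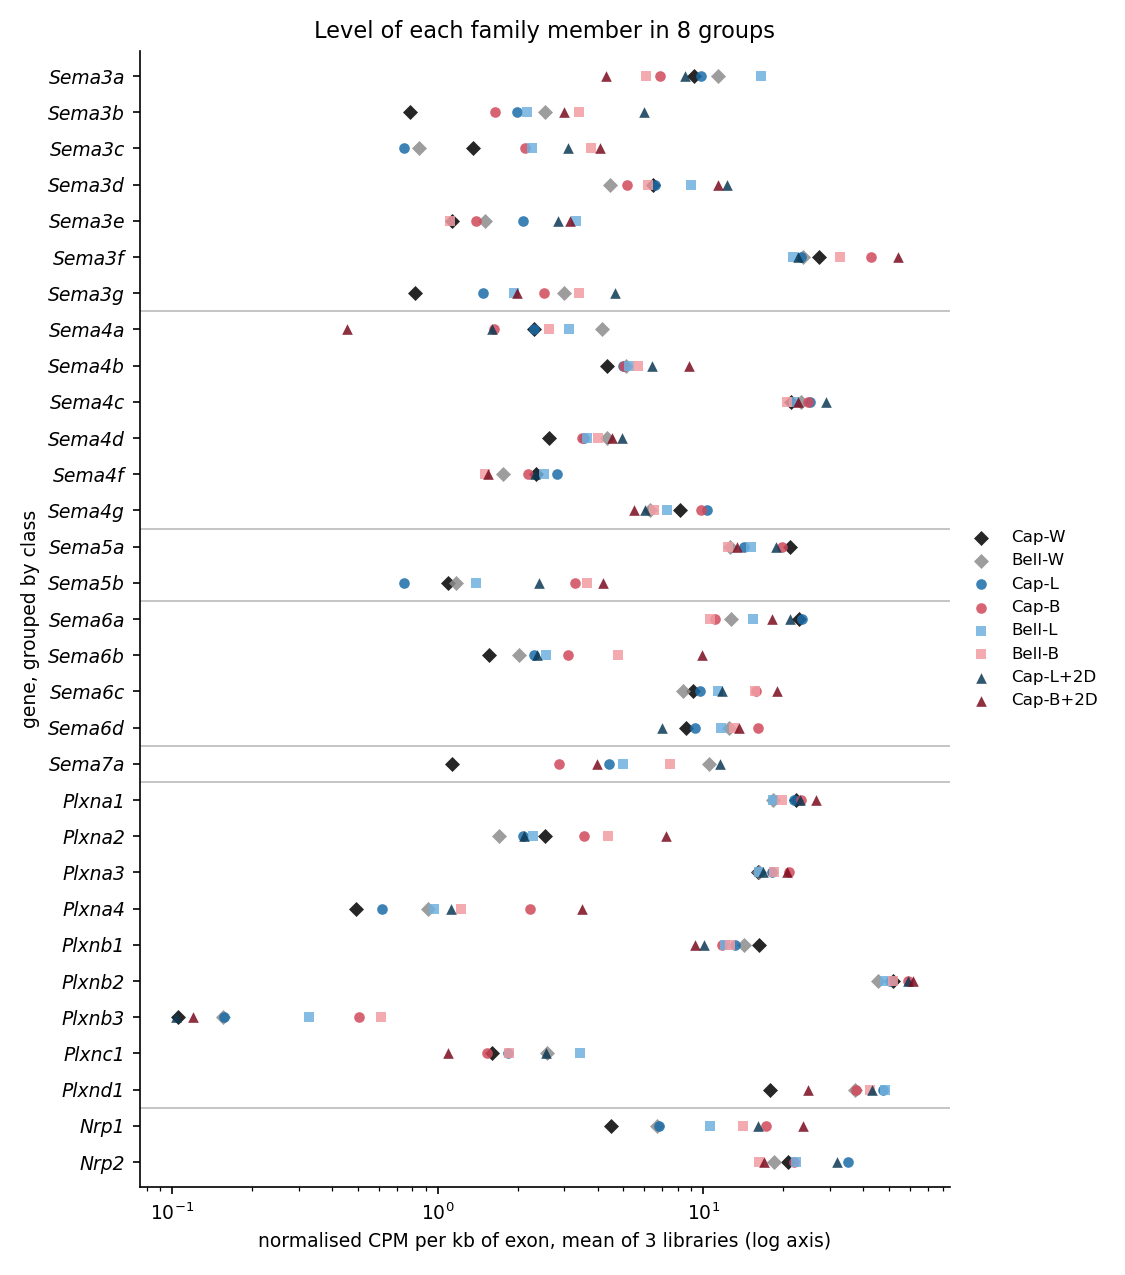
Mean normalised CPM per kilobase of exon (log axis) of the 31 genes in the 8 groups, 1 marker per group mean of 3 libraries, with genes grouped by class. Plxnb2 lies furthest to the right in 7 of the 8 groups and Plxnb3 furthest to the left in all, while Sema7a, Sema4a, Sema3b and Plxna4 spread widest between groups.

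Group means spanned the widest range for Sema7a, 10.2-fold from Cap-W to Cap-L+2D, followed by Sema4a (9.13-fold, Cap-B+2D to Bell-W), Sema3b (7.59-fold, Cap-W to Cap-L+2D), Plxna4 (7.09-fold, Cap-W to Cap-B+2D) and Sema6b (6.36-fold, Cap-W to Cap-B+2D). The narrowest ranges belonged to Plxna3 (1.30-fold), Plxnb2 (1.36-fold), Sema4c (1.40-fold) and Plxna1 (1.45-fold). The Sema4a mean in Bell-W rested on Bell-W 3, with 14.7, 14.6 and 37.8 CPM in the 3 libraries.

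**Figure D2:**
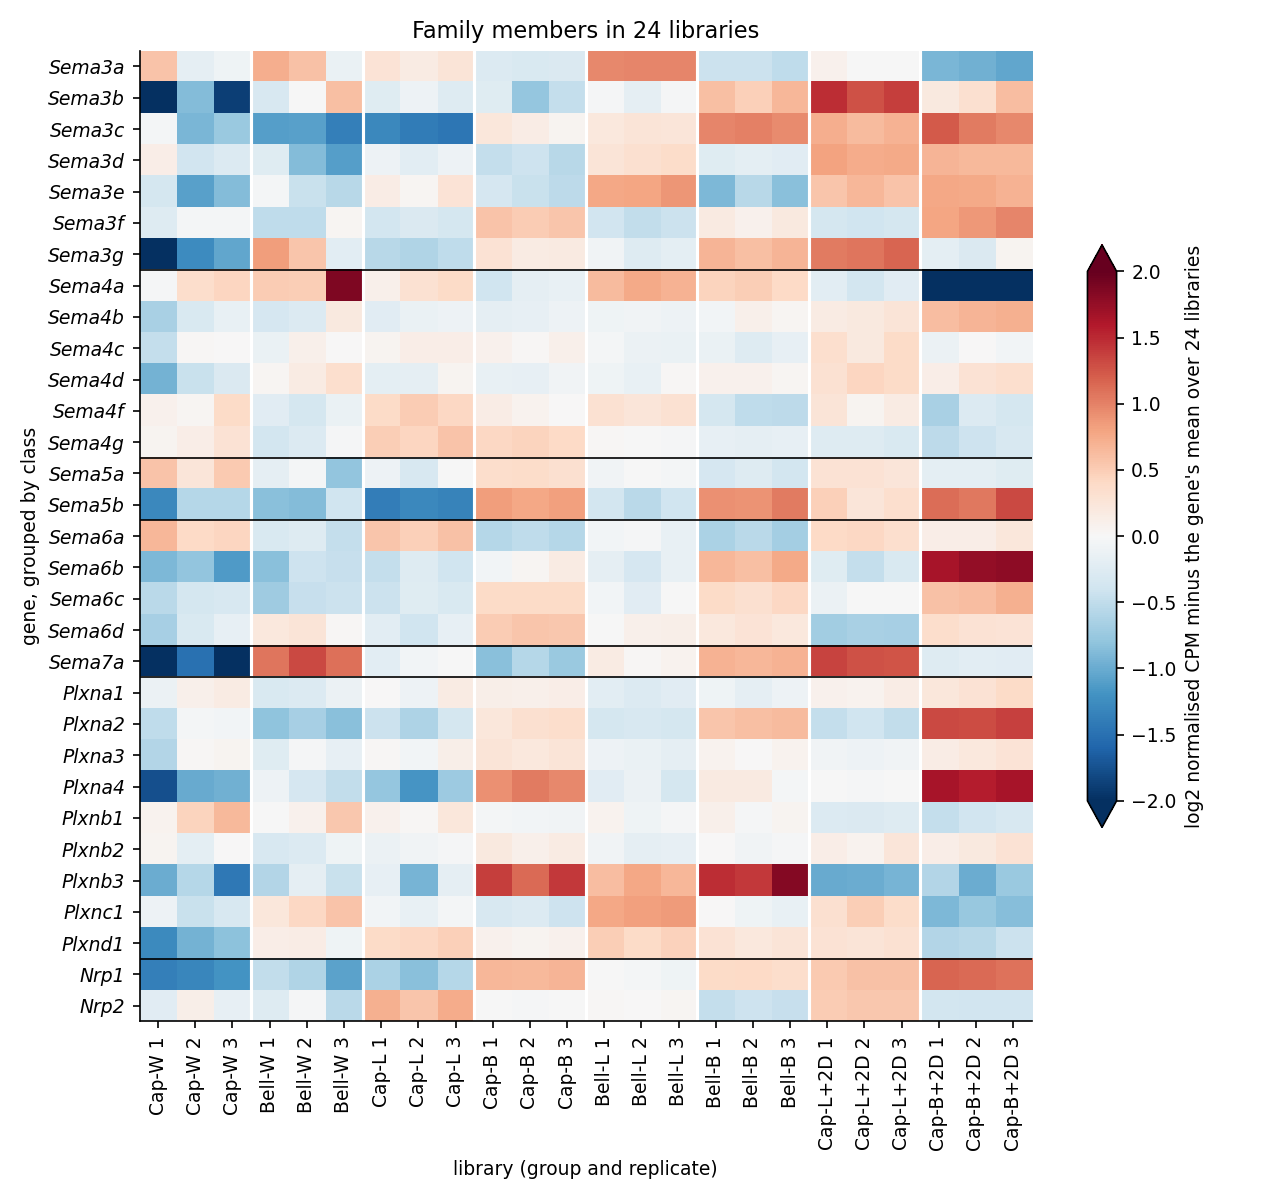
Log2 normalised CPM of the 31 genes in the 24 libraries, each gene centred on its mean over all libraries (red higher, blue lower, colours saturate at a difference of 2), with columns as group and replicate. Within divided groups the 3 libraries look alike, while Cap-W and Bell-W columns differ among themselves, as in Sema4a of Bell-W 3.

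Lingual and buccal parts were first compared at the cap stage. Of the 31 genes, 11 were called higher and 4 lower in Cap-B than in Cap-L, at an adjusted p under 0.05 (edgeR quasi-likelihood test with Benjamini-Hochberg adjustment over 20653 genes) and an absolute log2 fold change over 0.5, while 17.5% of all genes tested were called either way (10.4% higher and 7.1% lower). The median absolute log2 fold change of the 31 genes was 0.49 against 0.19 over all genes. Class 3 and classes 5 to 7 held 10 of the 15 calls, plexins 3 and neuropilins 2, and none of the 6 class 4 semaphorins was called. The groups did not overlap in 25 of the 31 genes, where 52.4% of all genes tested did not overlap. Beside these differences, 6 of 8 epithelial and 6 of 7 osteoblast markers were called lower in Cap-B, and glial markers were split, with 6 higher and 2 lower. The part of these cells and of muscle in the differences was not tested, and in bulk RNA fewer cells of a type and less RNA per cell cannot be told apart.

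Both neuropilins differed, in opposite directions. Nrp1, the coreceptor for Sema3a and VEGF-A, had 68.6, 59.9 and 71.5 CPM in the Cap-L libraries and 169, 168 and 172 in Cap-B. Every buccal library lay above every lingual one, with a log2 fold change of 1.37 ± 0.058 (SE, edgeR adjusted p = 8.33e-13). Nrp2, the preferred partner of Sema3f, had 427, 384 and 437 CPM in Cap-L and 260.3, 258 and 259 in Cap-B, so the lingual libraries were the higher ones without overlap, with a log2 fold change of -0.66 ± 0.051 (SE, edgeR adjusted p = 5.91e-09).

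Among class 3 ligands, Sema3c, Sema3f and Sema3g were higher and Sema3e was lower on the buccal side. Sema3c had 5.65, 5.23 and 5.05 CPM in Cap-L and 16.1, 15.3 and 14.3 in Cap-B, which is 2.87-fold between the means (log2 fold change 1.55, SE 0.087, edgeR adjusted p = 5.34e-11). Sema3f, per kilobase the most abundant of the class, had 118, 125 and 119.6 CPM in Cap-L and 228, 217 and 223 in Cap-B (log2 fold change 0.91, SE 0.043, edgeR adjusted p = 5.7e-12). In both genes the lowest buccal library was above the highest lingual library. Sema3g (0.79) and Sema3e (-0.56) were called with smaller log2 fold changes, Sema3e losing its call without Cap-L 3, Sema3a (-0.49) missed the fold threshold at an edgeR adjusted p of 7.89e-08 but passed it with no filter, with all 24 libraries in 1 fit and without Cap-L 2, and Sema3b (-0.27) and Sema3d (-0.32) were not called.

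The largest difference of the family was that of Sema5b, a membrane protein with thrombospondin repeats. It had 5.08, 5.43 and 5.26 CPM in Cap-L and 23.7, 22.7 and 23.4 in Cap-B, a log2 fold change of 2.17 ± 0.075 (SE, edgeR adjusted p = 4.55e-14). The lingual and buccal libraries were far apart relative to their spread within groups. Its relative Sema5a, which was more abundant on either scale (265 ± 30.04 CPM in Cap-L and 369.8 ± 5.67 in Cap-B, mean ± SD), passed the fold threshold narrowly (0.51) and lost the call with DESeq2, with no filter on low counts, with all 24 libraries in 1 fit, and without Cap-L 2 or Cap-B 2 (down to 0.41). Class 6 was split, with Sema6c (0.73) and Sema6d (0.81) higher in the buccal part and Sema6a, a ligand of Plxna2 and Plxna4, higher in the lingual part (-1.06, 207 ± 7.47 against 97.6 ± 2.46 CPM). Sema7a was also lower in Cap-B (-0.60).

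Of the plexins, Plxna4, Plxnb3 and Plxna2 were higher in Cap-B. Plxna4, a receptor of Sema3a and of class 6, had 9.37, 7.07 and 9.67 CPM in Cap-L and 29.97, 32.8 and 31.1 in Cap-B (log2 fold change 1.88, SE 0.092, edgeR adjusted p = 6.65e-12). Plxna2 had 36.8, 32.4 and 38.8 CPM in Cap-L and 58.04, 61.8 and 63.1 in Cap-B (log2 fold change 0.79, SE 0.063, edgeR adjusted p = 8.15e-09). Neither gene overlapped between the sides. Plxnb3 differed by 1.75 at a low level, 1.18, 0.696 and 1.17 CPM in Cap-L and 3.43, 2.89 and 3.50 in Cap-B. The 6 other plexins lay between -0.32 (Plxnd1) and 0.25 (Plxnb2).

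**Figure D3:**
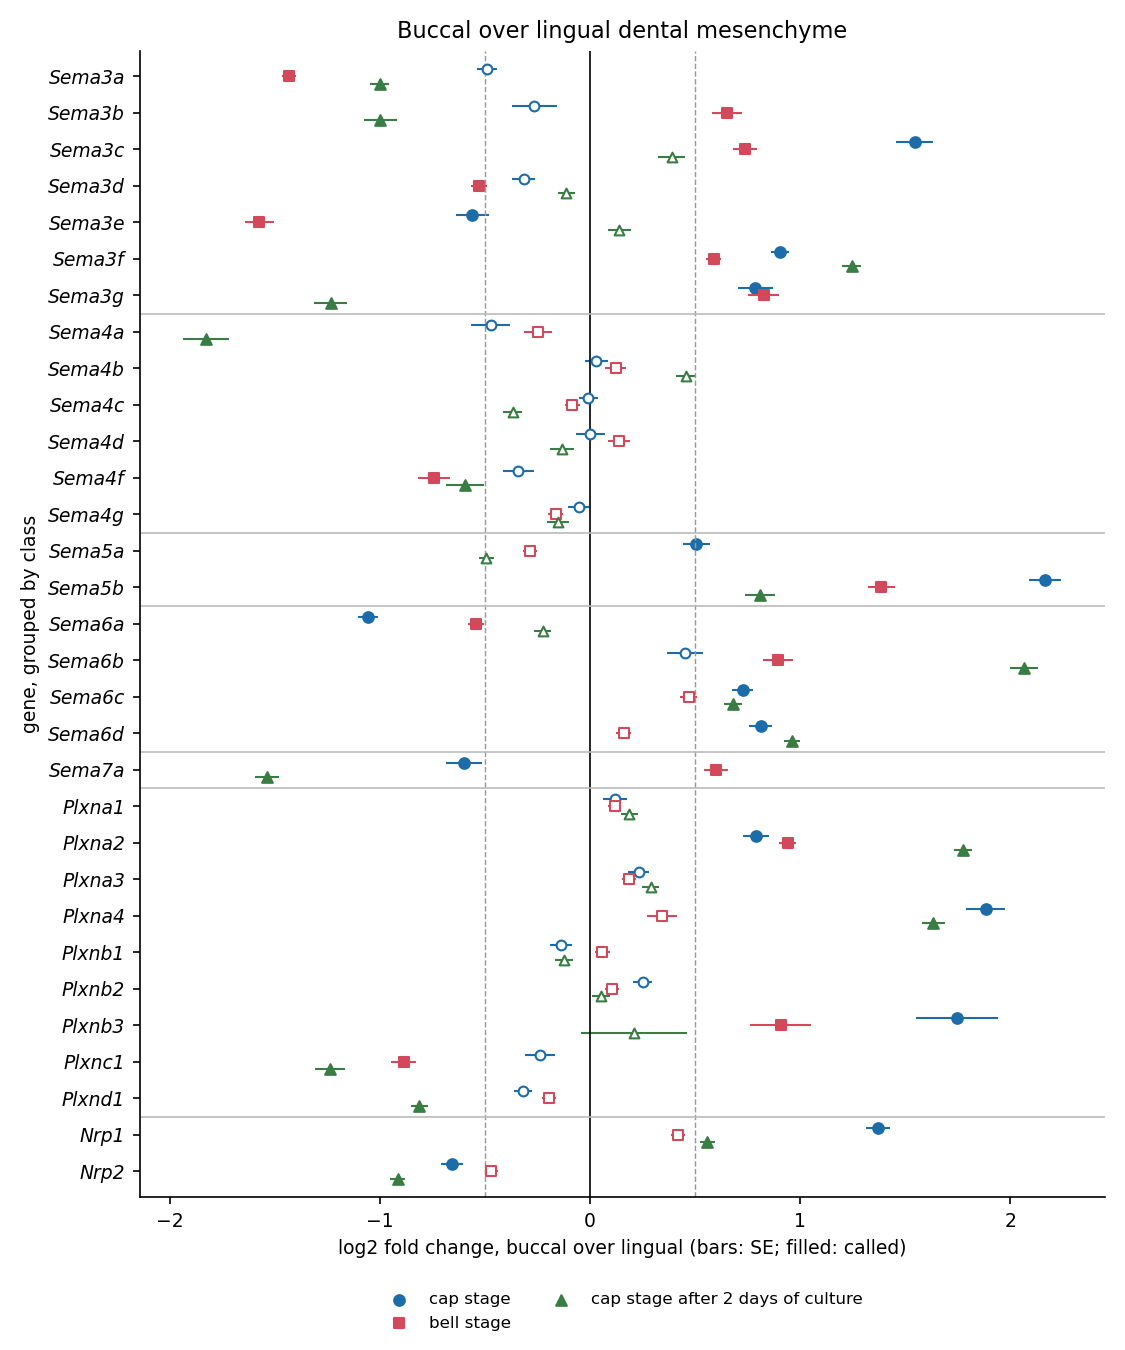
Log2 fold change of buccal over lingual for each of the 31 genes in cap (circles), bell (squares) and cultured cap parts (triangles), with bars for the standard error and filled markers for genes called. Dashed lines stand at 0.5 in either direction, and Sema5b, Sema3f and Plxna2 have filled markers to the right in all 3 comparisons.

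At the bell stage, 9 genes were called higher and 6 lower in Bell-B than in Bell-L, where 12.9% of 21181 genes tested were called either way (6% higher and 6.88% lower). The median absolute log2 fold change was 0.47 for the 31 genes and 0.14 for all genes, and 28 of the 31 genes did not overlap between the sides against 45.5% of all genes. All 7 class 3 ligands were called, 4 higher and 3 lower in the buccal part. Classes 5 to 7 held 4 calls, class 4 held 1 (Sema4f, -0.74), and 3 of the 9 plexins were called. In Bell-B 7 of 8 macrophage and 3 of 8 epithelial markers were called lower and 4 of 8 neuronal markers higher. Glial markers were split, with 4 higher and 2 lower, as were osteoblast markers, with 2 higher and 2 lower. The part of these cells and of muscle in the differences at the bell stage was not tested.

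The largest absolute fold changes of the bell stage were lower levels of Sema3e and Sema3a in the buccal part. Sema3e, the Plxnd1 ligand, had 29.9, 30.1 and 32.3 CPM in Bell-L and 9.41, 11.9 and 9.73 in Bell-B (log2 fold change -1.57, SE 0.068, edgeR adjusted p = 1.02e-22). Sema3a had 227, 229 and 229 CPM in Bell-L and 86.1, 85.98 and 81.6 in Bell-B (log2 fold change -1.43, SE 0.033, edgeR adjusted p = 3.39e-32). For both genes Bell-L was well above Bell-B in every library, and Bell-L had the highest group mean of the study. Sema3d was lower as well (-0.53), whereas Sema3g (0.83), Sema3c (0.74), Sema3b (0.65) and Sema3f (0.59) were higher in the buccal part.

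Sema5b again led the genes higher in the buccal part. It had 10.3, 9.15 and 10.1 CPM in Bell-L and 25.1, 24.8 and 27.3 in Bell-B (log2 fold change 1.39, SE 0.066, edgeR adjusted p = 4e-21). Sema3c had 15.9, 16.4 and 16.3 CPM in Bell-L and 27.03, 27.5 and 26.4 in Bell-B (log2 fold change 0.74, SE 0.057, edgeR adjusted p = 2.17e-14). Sema3f had 118, 109 and 113 CPM in Bell-L and 173, 162 and 176 in Bell-B (log2 fold change 0.59, SE 0.035, edgeR adjusted p = 5.94e-18). None of these 3 genes overlapped between the sides. Plxna2 had 39.1, 39.7 and 38.7 CPM in Bell-L and 72.8, 75.3 and 77.2 in Bell-B (log2 fold change 0.94, SE 0.040, edgeR adjusted p = 7.43e-23), again without overlap. Sema6a was lower as well (-0.54). Sema6b (0.90), Plxnb3 (0.91) and Sema7a (0.60) were also higher, and Plxnc1, the receptor of Sema7a, was lower (-0.89, 28.6 ± 0.764 against 15.4 ± 0.812 CPM).

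The neuropilins differed by less than the fold threshold at the bell stage. Nrp1 had 106, 104 and 101 CPM in Bell-L and 139, 140.02 and 136 in Bell-B, with a log2 fold change of 0.42 ± 0.033 (SE, edgeR adjusted p = 4.33e-14). Nrp2 had 265, 264 and 268 CPM in Bell-L and 188, 197 and 189.8 in Bell-B, with a log2 fold change of -0.47 ± 0.031 (SE, edgeR adjusted p = 1.81e-16). Both genes still separated the sides without overlap, in the directions of the cap stage.

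In the cultured parts, 8 genes were called higher and 9 lower in Cap-B+2D than in Cap-L+2D, where 25.1% of 21195 genes tested were called either way (12.5% in each direction). The median absolute log2 fold change was 0.60 for the 31 genes and 0.24 for all genes, and 28 of 31 genes did not overlap against 59.1% of all genes. Besides the muscle list, 7 of 8 endothelial, 6 of 8 macrophage and 7 of 7 osteoblast markers were called lower in the buccal part. Epithelial markers were split, with 6 of 8 lower and 1 higher, and 5 of 8 neuronal markers were higher. The part of all these markers in the results below was not tested.

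The genes higher in the buccal part after culture were led by Sema6b and by the plexins it or its class can bind. Sema6b had 10.02, 8.49 and 9.53 CPM in Cap-L+2D and 37.1, 39.9 and 40.8 in Cap-B+2D (log2 fold change 2.06, SE 0.067, edgeR adjusted p = 6.12e-19). Plxna2 had 35.8, 37.6 and 35.4 CPM in Cap-L+2D and 124, 123 and 127 in Cap-B+2D (log2 fold change 1.78, SE 0.043, edgeR adjusted p = 1.57e-21). Plxna4 had 15.9, 15.7 and 15.9 CPM in Cap-L+2D and 50.4, 47.7 and 49.9 in Cap-B+2D (log2 fold change 1.63, SE 0.053, edgeR adjusted p = 5.97e-19). In all 3 genes Cap-B+2D had the highest mean of the 8 groups. The medians of the summed muscle, glial and neuronal markers were highest in the same group. From Cap-B to Bell-B the muscle sum was higher, as were Sema6b and Plxna2, while Plxna4 was lower. Sema3f (120.4, 115 and 119 against 265, 279.7 and 302 CPM, 1.25), Sema6d (0.96), Sema5b (18.6, 15.8 and 16.7 against 28.9, 27.5 and 33.00 CPM, 0.81) and Sema6c (0.68) were higher too.

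Sema4a and Sema7a led the genes lower in the cultured buccal part. Sema4a had 8.95, 8.04 and 8.90 CPM in Cap-L+2D and 2.28, 2.61 and 2.47 in Cap-B+2D (log2 fold change -1.83, SE 0.11, edgeR adjusted p = 1.85e-13). Cap-B+2D was the lowest of the 8 groups for Sema4a, and its summed epithelial and its summed endothelial markers were the lowest as well. Sema7a (38.1 ± 1.28 against 13.2 ± 0.262 CPM, -1.54), Plxnc1 (-1.24), Sema3g (-1.24), Sema3a (-1.002), Sema3b (-0.999) and Sema4f (-0.60) were also lower, Sema4f losing its call without Cap-B+2D 1. The osteoblast markers summed to 2112 to 2138 CPM in Cap-L+2D and 463 to 487 in Cap-B+2D. Plxnd1, which is abundant in blood vessels, was lower by a log2 fold change of -0.81 (316 ± 5.30 against 181 ± 10.4 CPM), beside endothelial markers summing to 393 to 404 CPM in Cap-L+2D and 156 to 164 in Cap-B+2D.

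The neuropilins kept their opposite directions in culture. Nrp1 had 153, 160.4 and 159 CPM in Cap-L+2D and 238, 235 and 227 in Cap-B+2D (log2 fold change 0.56, SE 0.037, edgeR adjusted p = 2.13e-12), and Nrp2 had 374, 379 and 380.02 CPM in Cap-L+2D and 202, 200.03 and 201 in Cap-B+2D (log2 fold change -0.92, SE 0.035, edgeR adjusted p = 2e-17). Sema3c, with 22.8, 21.3 and 22.4 CPM in Cap-L+2D and 32.2, 28.3 and 26.7 in Cap-B+2D, was higher in the buccal libraries without overlap but did not reach the fold threshold (log2 fold change 0.39, SE 0.064, edgeR adjusted p = 1.2e-05).

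**Figure D4:**
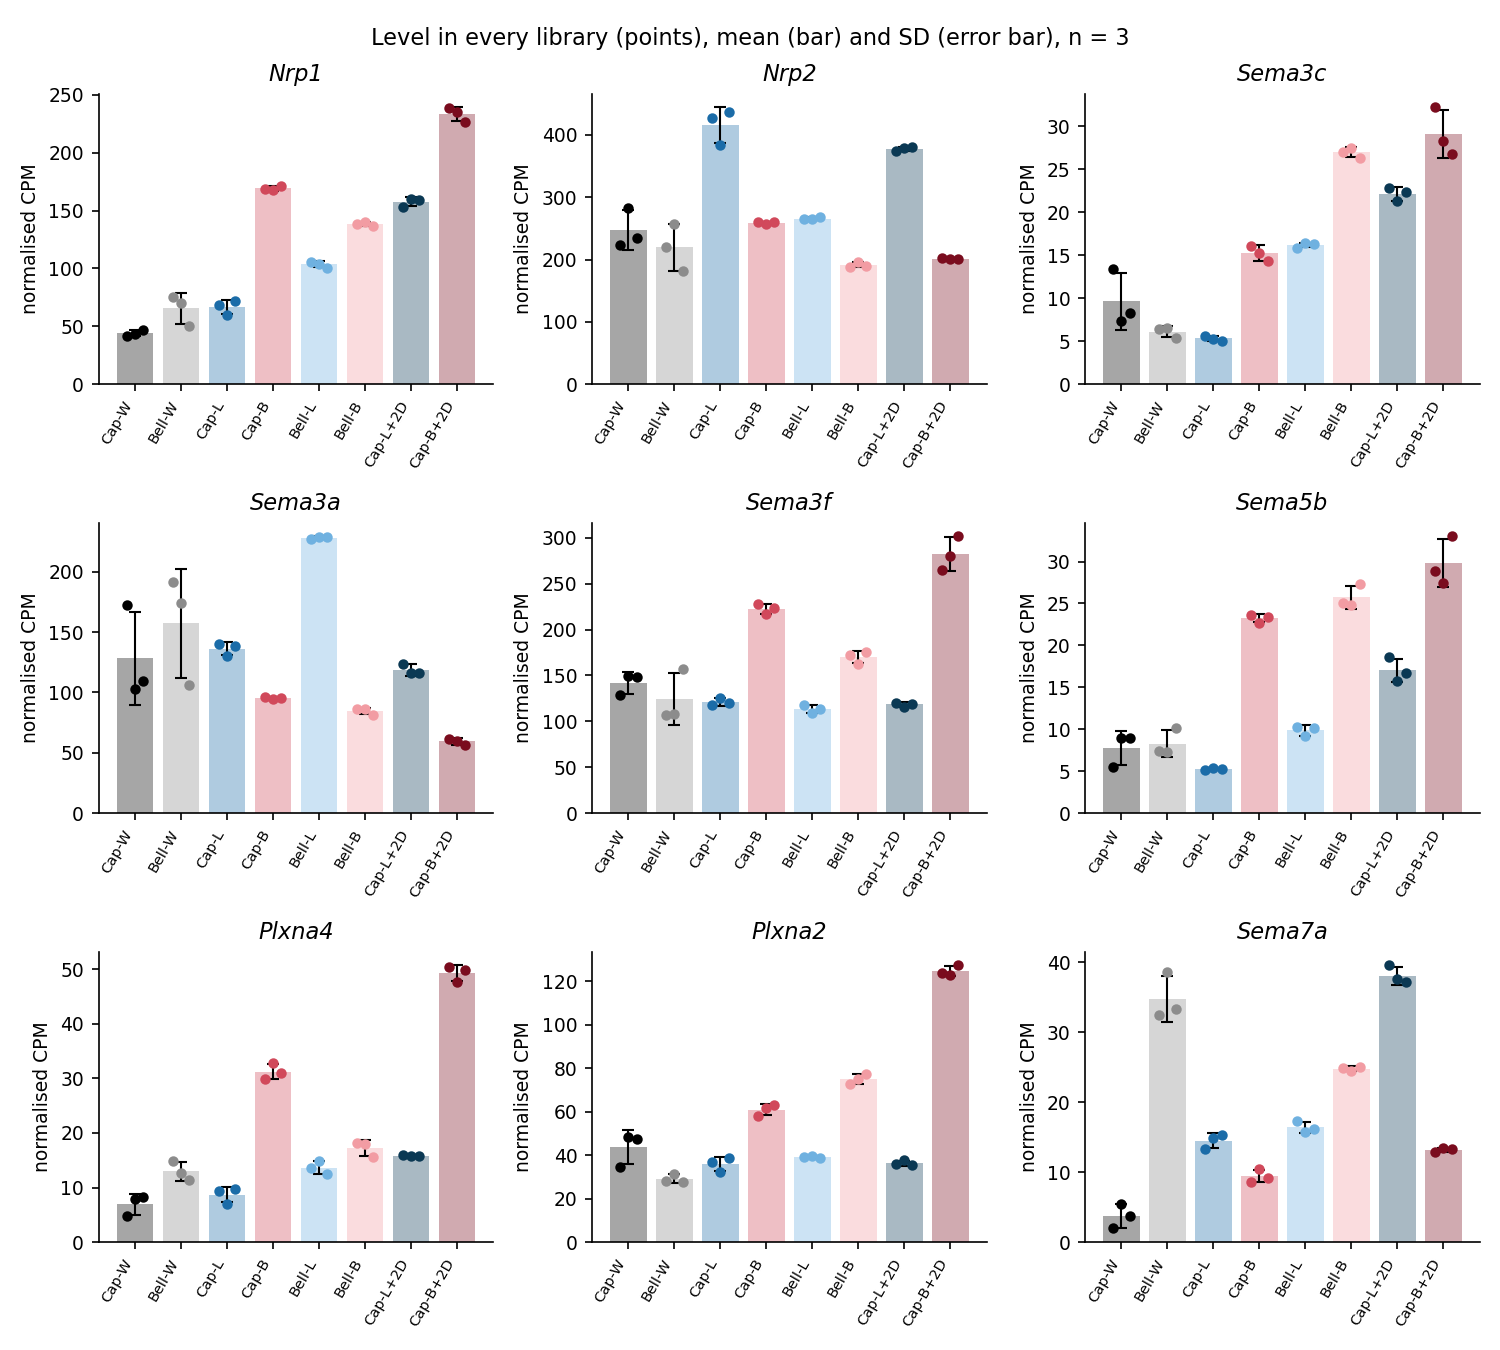
Normalised CPM of 9 genes in every library of the 8 groups (points), with bars for the mean and error bars for the SD of 3 libraries. Nrp1, Sema3c, Sema3f, Sema5b and Plxna2 stand higher in the buccal (red) than in the lingual (blue) libraries of each pair, Nrp2 and Sema3a stand lower, and Sema7a changes its order between the pairs.

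Across the 3 side comparisons, Sema3f, Sema5b and Plxna2 were called higher in the buccal part each time, against 2.7% of 19747 genes tested in all 3, and no gene of the family was called lower each time, against 2.45%. Sema3b, Sema3g and Sema7a were called in opposite directions in at least 1 pair of comparisons (1.58% of all genes), 17 genes were called in some comparisons without a conflict (24.5%), and 8 were called in none (68.7%), namely Sema4b, Sema4c, Sema4d, Sema4g, Plxna1, Plxna3, Plxnb1 and Plxnb2. The difference between the sides was then tested against stage and against culture in fits of 12 libraries each, which share the 6 cap-stage libraries. The side difference changed between the stages in 21 of the 31 genes, 6 upward and 15 downward from cap to bell, against 32.5% of 21931 genes (14.5% upward and 18% downward, edgeR adjusted p under 0.05 with no fold threshold). It changed with culture in 22 of 31, 7 upward and 15 downward, against 35.5% of 22098 genes (16% and 19.5%). With all 24 libraries in 1 fit the counts were 12 for stage, where 11% of all genes passed, and 15 for culture, where 17.3% passed.

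The largest stage-dependent difference was that of Plxna4, whose log2 difference of buccal over lingual changed by -1.55 from the cap to the bell stage (SE 0.12, edgeR adjusted p = 2.5e-11). For Nrp1 the change was -0.96 ± 0.067, for Sema3e -1.02 ± 0.11 and for Sema3a -0.95 ± 0.056. Sema7a moved the other way, by 1.19 ± 0.10, from lower to higher in the buccal part. With culture, Sema3g changed most, by -2.03 ± 0.12 (edgeR adjusted p = 1.57e-14), from higher to lower in the buccal part, and Sema6b changed by 1.61 ± 0.11. The difference of Sema5b changed by -1.36 and that of Sema3c by -1.16, both towards the lingual part, and that of Plxna2 by 0.98 towards the buccal part. Of the 3 genes called higher in the buccal part each time, Plxna2 alone showed no change with stage past the threshold (0.14, edgeR adjusted p = 0.145).

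The stages were compared first in the undivided samples. From Cap-W to Bell-W, 6 of the 31 genes were called higher and 3 lower, where 14.5% of 20940 genes tested were called either way (10.3% higher and 4.21% lower), and 17 did not overlap against 36.7% of all genes. Sema7a had 1.95, 5.50 and 3.71 CPM in Cap-W and 32.5, 38.5 and 33.2 in Bell-W (log2 fold change 3.17, SE 0.34, edgeR adjusted p = 0.00118). Sema3g had 2.28, 4.15 and 4.79 CPM in Cap-W and 17.6, 14.5 and 8.56 in Bell-W (log2 fold change 1.83, SE 0.36, edgeR adjusted p = 0.0132). Sema3b had 2.33, 5.96 and 2.95 CPM in Cap-W and 8.69, 10.9 and 16.6 in Bell-W (log2 fold change 1.65, SE 0.40, edgeR adjusted p = 0.0302). The groups did not overlap in these genes, although the libraries of a group spread widely for Sema3g and Sema3b.

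Plxnd1 (1.05), Sema4d (0.70) and Plxnc1 (0.69) were the other genes higher in Bell-W, and Sema6a (-0.85), Sema5a (-0.77) and Plxna2 (-0.60) were lower. All 8 endothelial and all 8 macrophage markers were higher in Bell-W as well, with endothelial sums of 190 to 196 CPM in Cap-W and 388 to 469 in Bell-W. Of 6 osteoblast markers tested, 5 were higher too, with sums of 72.0 to 146 CPM in Cap-W and 289 to 376 in Bell-W. The part of these markers in the results was not tested. Of the genes the study named, Nrp1 (41.4, 43.3 and 46.7 against 75.5, 70.1 and 50.5 CPM) missed the p threshold at a log2 fold change of 0.56 ± 0.16 (SE, edgeR adjusted p = 0.0529). Sema3c (13.5, 7.31 and 8.23 against 6.42, 6.49 and 5.33 CPM, -0.67) and Sema5b (5.45, 8.92 and 8.90 against 7.46, 7.24 and 10.1 CPM, 0.07) were not called. The count of 9 fell to 5 without Cap-W 2, 4 without Cap-W 3 and 3 without Bell-W 2, where 9.85%, 8.07% and 8.41% of all genes were called, and it rose to 15 when Cap-W 1 and Bell-W 3 were both left out, where 20.9% were called. Sema7a, Plxnd1 and Sema6a kept their calls when any 1 library was left out. Sema3g lost its call without Bell-W 2, Plxnc1 without Cap-W 2, Cap-W 3 or Bell-W 2, Sema3b without Cap-W 1, Cap-W 3, Bell-W 2 or Bell-W 3, and Sema4d, Sema5a and Plxna2 each lost theirs in 5 of 6 such fits.

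Within the lingual part, 8 genes were called higher and 2 lower in Bell-L than in Cap-L, where 20% of 21425 genes were called either way (14.2% higher and 5.78% lower), and 23 did not overlap against 55.9% of all genes. The Cap-L libraries also serve as the reference for the cultured lingual part below. Sema3c rose from 5.65, 5.23 and 5.05 CPM in Cap-L to 15.9, 16.4 and 16.3 in Bell-L (log2 fold change 1.62, SE 0.078, edgeR adjusted p = 6.59e-15). Sema5b rose from 5.08, 5.43 and 5.26 to 10.3, 9.15 and 10.1 CPM (log2 fold change 0.91, SE 0.093, edgeR adjusted p = 9.25e-09), and Plxnc1 from 15.6, 14.7 and 15.7 to 27.7, 28.7 and 29.2 CPM (log2 fold change 0.91, SE 0.063, edgeR adjusted p = 7.94e-12). No library of these genes overlapped between the stages. Plxnb3 (1.10), Sema3a (0.75), Sema3e (0.68), Plxna4 (0.67) and Nrp1 (0.65) were higher too, and Nrp2 (-0.64) and Sema6a (-0.60) were lower.

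Within the buccal part, 5 genes were called higher and 4 lower in Bell-B than in Cap-B, where 18.7% of 21992 genes were called either way (12% higher and 6.73% lower), and 29 did not overlap against 55.4% of all genes. Sema7a rose from 8.62, 10.4 and 9.22 to 24.9, 24.4 and 24.99 CPM (log2 fold change 1.39, SE 0.068, edgeR adjusted p = 7.17e-18). Sema3b rose from 9.21, 6.40 and 7.86 to 16.5, 15.1 and 17.2 CPM (log2 fold change 1.05, SE 0.10, edgeR adjusted p = 2.01e-10), and Plxna4 fell from 29.97, 32.8 and 31.1 to 18.1, 18.1 and 15.5 CPM (log2 fold change -0.87, SE 0.059, edgeR adjusted p = 4.5e-14). These groups were separate in every library. Sema3c (0.82), Sema4a (0.67) and Sema6b (0.61) were also higher, and Sema5a (-0.68), Sema4g (-0.60) and Sema4f (-0.55) lower. Nrp1 changed by -0.30 and Nrp2 by -0.44, below the fold threshold. All 8 muscle and all 8 macrophage markers were called higher at the bell stage on both sides. Of 8 epithelial markers, 6 were called higher and 1 lower on the buccal side, and 3 higher on the lingual side. Of 7 osteoblast markers, 5 were called lower on the lingual side and 3 higher on the buccal side. The part of all these markers in the stage differences was not tested.

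Culture of the lingual part was followed by higher levels of 8 genes and lower levels of 2 in Cap-L+2D against Cap-L, where 35.4% of 21425 genes were called either way (19.6% higher and 15.9% lower), a share above that of 10 in 31. In 27 of the 31 genes the groups did not overlap, against 67.5% of all genes. Sema3c went from 5.65, 5.23 and 5.05 CPM to 22.8, 21.3 and 22.4 (log2 fold change 2.07, SE 0.075, edgeR adjusted p = 6.47e-18). Sema5b went from 5.08, 5.43 and 5.26 to 18.6, 15.8 and 16.7 CPM (log2 fold change 1.69, SE 0.086, edgeR adjusted p = 5.69e-15), and Sema3g from 6.69, 6.54 and 6.92 to 20.3, 20.7 and 22.2 CPM (log2 fold change 1.66, SE 0.076, edgeR adjusted p = 6.8e-16). The cultured libraries were all above the fresh ones. Sema3b (1.58), Sema7a (1.39), Nrp1 (1.25), Sema3d (0.91) and Plxna4 (0.88) were higher too, and Sema4g (-0.77) and Sema4a (-0.53) were lower. Osteoblast markers summed to 527 to 551 CPM in Cap-L and 2112 to 2138 in Cap-L+2D. All 8 muscle and 7 of 8 macrophage markers were called higher, while 5 of 8 epithelial markers were called lower and 1 higher. The muscle sum was 23.8 to 24.4 CPM in Cap-L and 328 to 350 in Cap-L+2D, and the part of these markers in the results was not tested. Sema4a lost its call without Cap-L 3 or Cap-L+2D 2.

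Culture of the buccal part was followed by higher levels of 9 genes and lower levels of 8 in Cap-B+2D against Cap-B, where 34.5% of 21992 genes were called either way (17.9% higher and 16.6% lower), and 29 did not overlap against 69% of all genes. Sema4a went from 7.90, 9.16 and 9.42 to 2.28, 2.61 and 2.47 CPM (log2 fold change -1.88, SE 0.11, edgeR adjusted p = 1.44e-16). Sema6b went from 11.4, 12.2 and 13.3 to 37.1, 39.9 and 40.8 CPM (log2 fold change 1.65, SE 0.063, edgeR adjusted p = 2.22e-21), and Sema3e from 13.9, 12.8 and 12.2 to 29.9, 29.4 and 28.2 CPM (log2 fold change 1.16, SE 0.069, edgeR adjusted p = 3.75e-16). Fresh and cultured libraries were separate in each. Plxnb3 had a larger fold at a level of a few CPM at most (-2.07, 3.43, 2.89 and 3.50 against 0.878, 0.662 and 0.791). Sema3d (1.12), Plxna2 (1.01), Sema3c (0.92), Sema3b (0.85), Sema4b (0.80), Sema6a (0.69) and Plxna4 (0.64) were higher, and Sema4g (-0.86), Sema3a (-0.70), Plxnd1 (-0.62), Sema5a (-0.58), Sema4f (-0.52) and Plxnc1 (-0.51) lower. The calls of Sema4f and Plxnc1 lay close to the fold threshold and were lost under 2 and 5 of 7 alternative fits. All 8 muscle markers were higher and all 8 endothelial markers lower in the cultured buccal part. Macrophage markers (6 of 8) were higher, and of 7 osteoblast markers 5 were higher and 1 lower. Epithelial markers (7 lower and 1 higher) summed to 363 to 379 CPM in Cap-B and 87.9 to 88.8 in Cap-B+2D. Glial markers had 6 lower and 1 higher, and neuronal markers 3 higher and 2 lower. The part of all these markers in these results was not tested.

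**Figure D5:**
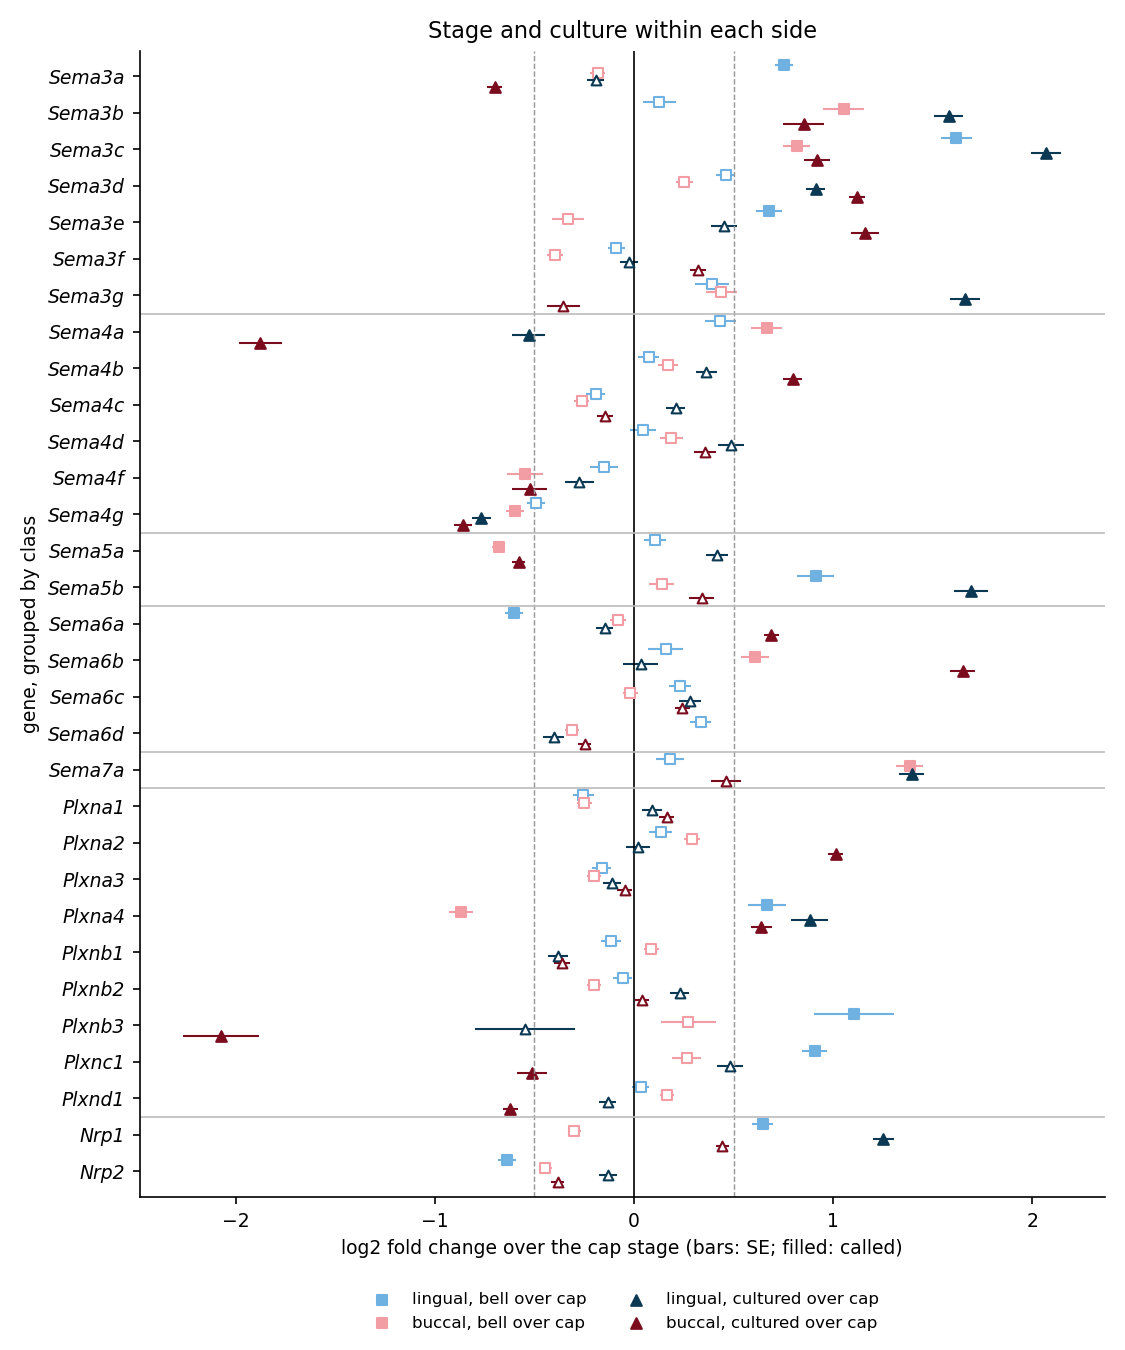
Log2 fold change over the cap stage for each of the 31 genes, for the bell stage (squares) and for cultured parts (triangles), in the lingual (blue) and buccal (red) part, with bars for the standard error and filled markers for genes called. Sema3c lies to the right with filled markers in all 4 comparisons, and Sema3a, Sema7a and Nrp1 differ between the sides.

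Sema3c was the gene called higher in both sides at the bell stage and in both sides after culture, yet it was not called in the undivided samples, whose Bell-W libraries (6.42, 6.49 and 5.33 CPM) lay below every Bell-L and Bell-B library. Undivided libraries also lay outside the parts for other genes. At the cap stage the Cap-W mean was below both part means in 17 genes, above both in 2 and between them in 12, against 38.2%, 38.5% and 23.3% of 23402 genes, and in 8 genes every Cap-W library was below every library of the parts, against 15.9% of those genes. Plxnd1 (108, 134 and 148 CPM in Cap-W, against means of 348 in Cap-L and 274 in Cap-B) and Nrp1 (means of 43.8, 66.6 and 169) were among these 8. Endothelial marker sums were 190 to 196 CPM in Cap-W, 466 to 479 in Cap-L and 406 to 412 in Cap-B. Sums of osteoblast, macrophage, neuronal, glial and muscle markers were also lower in every Cap-W library than in every part library. Dental mesenchyme sums were higher there, and epithelial sums overlapped. The part of all these markers in the differences was not tested. At the bell stage every Bell-W library was below every part library in 8 genes, against 9.12% of all genes, Nrp1 and Plxnd1 again among them. Sema7a was the 1 gene of the 31 with every Bell-W library above the parts, against 9.63% of all genes.

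Partners of the pathway were taken from a list of 59 genes, with 16 coreceptors, 5 VEGF ligands and 38 genes of plexin signalling, and 58 were tested in each comparison. The largest changes named below are those among called partners with an average log2 CPM of at least 2. At the cap stage 9 were higher and 3 lower in the buccal part, where 17.5% of all genes were called, with the largest absolute log2 fold changes in Mical2, which oxidises actin (-1.64, 24.9 against 79.3 CPM as means of Cap-B against Cap-L), Vegfd (0.92) and L1cam, a neuropilin partner (0.89). At the bell stage 3 were higher and 0 lower, a share below the 12.9% of all genes, namely Met (0.89), the receptor of hepatocyte growth factor that can associate with B-type plexins, Dpysl4 (0.82) and Dpysl3 (0.59), which belong to the CRMP family of microtubule-binding proteins. After culture 5 were higher and 10 lower in the buccal part, close to the 25.1% of all genes, the largest changes being those of Met (2.43, 58.5 against 10.8 CPM), Dpysl5 (2.03) and Dpysl4 (1.28).

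In the undivided samples 13 of 58 partners were higher and 7 lower in Bell-W, where 14.5% of all genes were called, the largest changes being those of Itga1, an integrin chain (1.95), Mical2 (1.93) and the VEGF receptor gene Flt1 (1.11). In the lingual part 8 were higher and 1 lower at the bell stage, where 20% of all genes were called, the largest changes being those of Nrcam, a cell adhesion molecule that binds Nrp2 (1.77), Itga1 (1.49) and Rras (0.87). In the buccal part 6 were higher and 1 lower, where 18.7% of all genes were called, the largest changes being those of Mical2 (1.79, 86.9 against 24.9 CPM), Nrcam (1.65) and Met (0.97). With culture 11 were higher and 5 lower in the lingual part, a share below the 35.4% of all genes, the largest changes being those of Crmp1 (-0.98), Dpysl5 (-0.96) and Rnd3 (0.96), and 10 were higher and 11 lower in the buccal part, close to the 34.5% of all genes, the largest changes being those of Met (2.02), Chl1, of the L1 family (-1.92), and Dpysl5 (1.70). Dpysl5 thus moved in opposite directions with culture in the 2 sides, and its interaction of side with culture was 2.65 (edgeR adjusted p = 5.83e-17).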

How the data were processed

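RNA of 24 libraries was sequenced by the authors, who deposited 1 table of raw counts (read pairs per gene, 56748 genes). Per the file headers, featureCounts of Subread 2.0.0 counted pairs over exons of an Ensembl 107 annotation of GRCm39 in paired mode, without strand, so reads of a gene and an antisense partner cannot be told apart. Pairs on several genes or places were left out, which undercounts genes sharing exons. The paper names STAR and a stranded kit in 1 section. In another it names Subread 2.0.0 and release 107 of GRCm39, the same version and release as these headers. The submitters' processing notes name Bowtie, and the labels another kit, so the aligner was not settled here.

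Symbols came from Ensembl 116 by identifier. In R 4.3.3, edgeR 4.0.16 fitted the libraries of each comparison (TMM, filterByExpr, quasi-likelihood test, Benjamini-Hochberg over all genes tested). A call needed an adjusted p below 0.05 together with a log2 fold change above 0.5 in size, for interactions the p alone. Stage and culture within a side used 1 fit of 9 libraries. Levels were TMM-normalised CPM over all 24 libraries. Named with values in every library were Nrp1, Sema3c and Sema5b, genes called in 1 direction in all 3 side comparisons, and the 3 called genes of largest absolute fold per comparison with an average log2 CPM of at least 2. Partners named were the 3 called ones of largest absolute fold with the same minimum level. Nrp2 was added after its values were seen. Alternatives were RLE scaling, other filters, all 24 libraries, DESeq2 1.42.0, a replicate block, other fold thresholds and each library left out. The pipeline was tested on simulated counts. The members, lists and tests were chosen with earlier results of these data known. Sequences were read from the GRCm39 genome at starts of canonical GENCODE transcripts.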

Additional observations from a re-analysis of the deposited data

Results flagged for a closer look

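Each value here is a change in the log2 difference of buccal over lingual, tested as an interaction over 12 libraries with edgeR at an adjusted p under 0.05, where a positive value means that the difference shifted towards the buccal part. These tests share the 6 cap-stage libraries, and 32.5% (stage) and 35.5% (culture) of all genes tested passed the same threshold.

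Between the cap and the bell stage the difference shifted towards the buccal part for Sema7a (1.19), Sema3b (0.91), Sema6a (0.51), Sema6b (0.44), Plxnb1 (0.19) and Nrp2 (0.18). It shifted towards the lingual part for Plxna4 (-1.55), Sema3e (-1.02), Nrp1 (-0.96), Sema3a (-0.95), Plxnb3 (-0.84), Sema3c (-0.81), Sema5a (-0.80), Sema5b (-0.78), Sema6d (-0.66), Plxnc1 (-0.65), Sema4f (-0.41), Sema3f (-0.32), Sema6c (-0.26), Sema3d (-0.22) and Plxnb2 (-0.15). Of these 21 shifts, those of Sema3a, Sema3c, Sema3e, Sema5a, Sema5b, Sema6a, Sema6b, Sema6d, Sema7a, Plxna4, Plxnc1 and Nrp1 passed the threshold under each of 7 alternative fits. The shifts of Plxnb1 and Plxnb2 passed it in 7 and 6 of 12 fits that left out 1 library each.

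With 2 days of culture the difference shifted towards the buccal part for Sema6b (1.61), Plxna2 (0.98), Sema6a (0.83), Sema3e (0.70), Sema4b (0.42), Sema3f (0.34) and Sema3d (0.20). It shifted towards the lingual part for Sema3g (-2.03), Plxnb3 (-1.54), Sema5b (-1.36), Sema4a (-1.36), Sema3c (-1.16), Sema5a (-1.005), Plxnc1 (-1.002), Sema7a (-0.94), Nrp1 (-0.82), Sema3b (-0.73), Sema3a (-0.52), Plxnd1 (-0.50), Sema4c (-0.36), Nrp2 (-0.26) and Plxnb2 (-0.20). With all 24 libraries in 1 fit, 15 of the genes passed the threshold, 5 towards the buccal and 10 towards the lingual part, where 17.3% of all genes passed. Fits that left out 1 library each gave 21 to 24. Muscle, epithelial, endothelial and osteoblast markers differ between the cultured parts, and their part in these shifts was not tested.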

How the results depend on the processing

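No called value changed direction under any alternative that was run. With RLE scaling, no filter, a filter of 10 counts in every library, the 100 most abundant genes left out of the library size, or DESeq2, every count of called genes stayed within 1.5 times the value in the report. With all 24 libraries in 1 fit, 15 genes were called in Bell-W over Cap-W (25.2% of all genes) and 12 in the interaction of side and stage (11% of all genes). With Cap-W 1 and Bell-W 3 both left out, an alternative chosen after seeing the data, Bell-W over Cap-W gave 15 (9 higher and 6 lower). Without a threshold on the fold, counts were 25, 28 and 29 for the sides (cap, bell, cultured), 20 and 26 for stage (lingual, buccal) and 26 and 29 for culture (lingual, buccal). At an absolute log2 fold change over 1 they were 4 for Bell-W over Cap-W, 6, 3 and 9 for the sides, 2 and 2 for stage and 6 and 6 for culture. A looser or stricter threshold gives more or fewer calls by its construction, and the cause of the other moves was not tested.

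Leaving out each library in turn gave 3 to 8 calls in Bell-W over Cap-W, 14 to 16, 15 to 16 and 16 to 18 for the sides, 10 to 11 and 9 to 9 for stage (lingual, buccal), 9 to 12 and 15 to 17 for culture, and 19 to 22 and 21 to 24 for the interactions. Single genes and partners gained a call 31 times and lost one 38 times over the other alternatives, and 33 and 50 times with a library left out.

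Whether the replicate numbers pair the libraries was not settled. In no comparison did every pair of same-numbered libraries deviate together with a correlation over 0.1. Among genes of at least 16 CPM on average, these correlations ran from 0.0718 to 0.207 in Bell-B over Cap-B. They ran from -0.255 to -0.0216 in Cap-B over Cap-L. With the replicate block, Bell-W over Cap-W gave 10 calls, Sema3d being added (log2 fold change -0.58), and the block changed no other count of called genes. The spread of the Cap-W and Bell-W libraries enters the comparison of these groups, and Plxnb3 has the lowest levels of the 31 genes.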
